A study of Homo sapiens with 6 samples.

Results

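The nucleolar factors that build ribosomes were examined as a group of 35 genes. They were chosen by name from what their products do, with earlier results of these data known. The list holds RNA polymerase I and its partners (5 genes), proteins of the small nucleolar ribonucleoproteins (snoRNPs, 5 genes), the small-subunit processome and later small-subunit factors (11 genes), large-subunit assembly factors (12 genes) and the abundant nucleolar proteins nucleolin and nucleophosmin (2 genes). All 35 were among the 28278 gene symbols of the tables, and all 35 passed the filter on low counts that left 14409 genes for testing. The libraries came from RKO, a line of human colon carcinoma cells. In 3 libraries the cells carried wild-type GSK3B and in 3 the gene was labelled as knocked out. The GSK3B protein is a kinase best known for phosphorylating glycogen synthase, beta-catenin and MYC, and the study asked which transcripts follow its level. No other treatment, time point or allele is named for either group. The sources used here do not give the method of the knockout, nor if its cells were clonal or pooled, nor if each library came from its own culture. P-values therefore reflect the spread among these libraries alone, and that spread may be technical.

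Ribosomes are assembled in the nucleolus. RNA polymerase I transcribes the ribosomal DNA into a long precursor, which snoRNPs modify and the small-subunit processome folds and cuts, while another set of factors assembles the large subunit around the remaining RNA. Many of these factors are known targets of the transcription factor MYC, and growing tumour cells generally carry large nucleoli and much of this machinery.

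Total counts ran from 32379369 to 33558362 per library. Single members had from 1211 counts (BYSL, wild-type replicate 2) to 40507 counts (NCL, knockout replicate 3) in a library. Levels are given as CPM, counts put on a common library total, with TMM scaling. They give each transcript's share of the sequenced messenger RNA and would not show a change in the RNA content of the whole cell, and in such bulk samples fewer cells of a kind and less RNA per cell cannot be told apart. Of 4 epithelial markers, KRT8, KRT18 and EPCAM were detected and CDH1 was listed at 0 in every library, and EPCAM was low, with 3.62, 4.28 and 2.40 CPM in wild-type and 1.03, 1.06 and 1.11 CPM in knockout libraries. Of 4 intestinal markers, CDX2 and VIL1 were detected and CDX1 and LGALS4 were listed at 0. The leukocyte genes PTPRC and CD3E were listed at 0 throughout, while CD68 had 740 to 763 CPM in wild-type and 754 to 759 CPM in knockout libraries. All 5 fibroblast markers had counts, with a summed level of 2.19 to 5.83 CPM in wild-type and 0.870 to 1.14 CPM in knockout libraries, and wild-type replicate 3 was the highest. That library also had the strongest trend with GC content, at 0.10 log2 units per 10 points of transcript GC against the mean of all libraries, where the other 5 libraries lay between -0.04 and 0.02. The part of these differences in the results was not tested, except where values with a GC correction or without that library are given.

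GSK3B had 98.97, 97.6 and 91.4 CPM in the wild-type libraries and 46.0, 47.5 and 47.1 CPM in the knockout libraries, so its transcript was lower in every knockout library but still present. The level in the knockout was 48.8% of wild type (95% interval 45.4 to 52.4; n = 3 per group; quasi-likelihood test of edgeR, Benjamini-Hochberg adjusted p = 1.88e-12). By exact permutation of the libraries (two-sided) p was 0.1, and 3 against 3 allow no smaller value. Counts per gene do not tell which exons the remaining transcript holds. MYC had 522, 541 and 549 CPM in wild-type and 456, 457 and 469 CPM in knockout libraries, which did not overlap. It fell by 0.22 ± 0.03 (SE) on the log2 scale (edgeR, adjusted p = 6.28e-05), and it was past the threshold in each of the 6 fits without 1 library.

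The nucleolar factors were slightly more abundant in the knockout. Of the 35 genes, 18 rose, 0 fell and 17 did not pass the test (edgeR quasi-likelihood test, Benjamini-Hochberg adjustment over all 14409 genes). Among all tested genes 6.36% were called higher and 7.18% lower. Most genes of the transcriptome are less expressed than these factors, whose lowest mean was 40.3 CPM. Among the 5822 genes with at least that mean, 12% were called higher and 6.58% lower. At an unadjusted p under 0.05, 21 members were higher and 0 lower, beside 13.9% and 14.1% of all tested genes and 23.2% and 12% of the genes of that level. DESeq2 called 17 members higher and 0 lower, beside 6.23% and 6.66% of all tested genes. Limma-voom called 18 higher and 0 lower, beside 6.33% and 6.87%.

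The rises were small. Those past the threshold ran from 1.09-fold to 1.38-fold, and the median log2 fold change of the 35 members was 0.13, beside 0.00067 over all tested genes and 0.02 over the genes of at least the same mean level. The log2 fold change was above 0 in 34 of 35 members, beside 50.1% of all tested genes and 59.7% of the genes of that level. In 23 members every knockout library lay above every wild-type library and in 0 members below, beside 15.4% and 15.9% of all tested genes. The median member stood 0.06, 0.07 and 0.08 log2 units below its own mean in the wild-type libraries and 0.07, 0.06 and 0.06 above it in the knockout libraries, so the 2 groups were separated library by library, as the heat map shows.

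**Figure D1:**
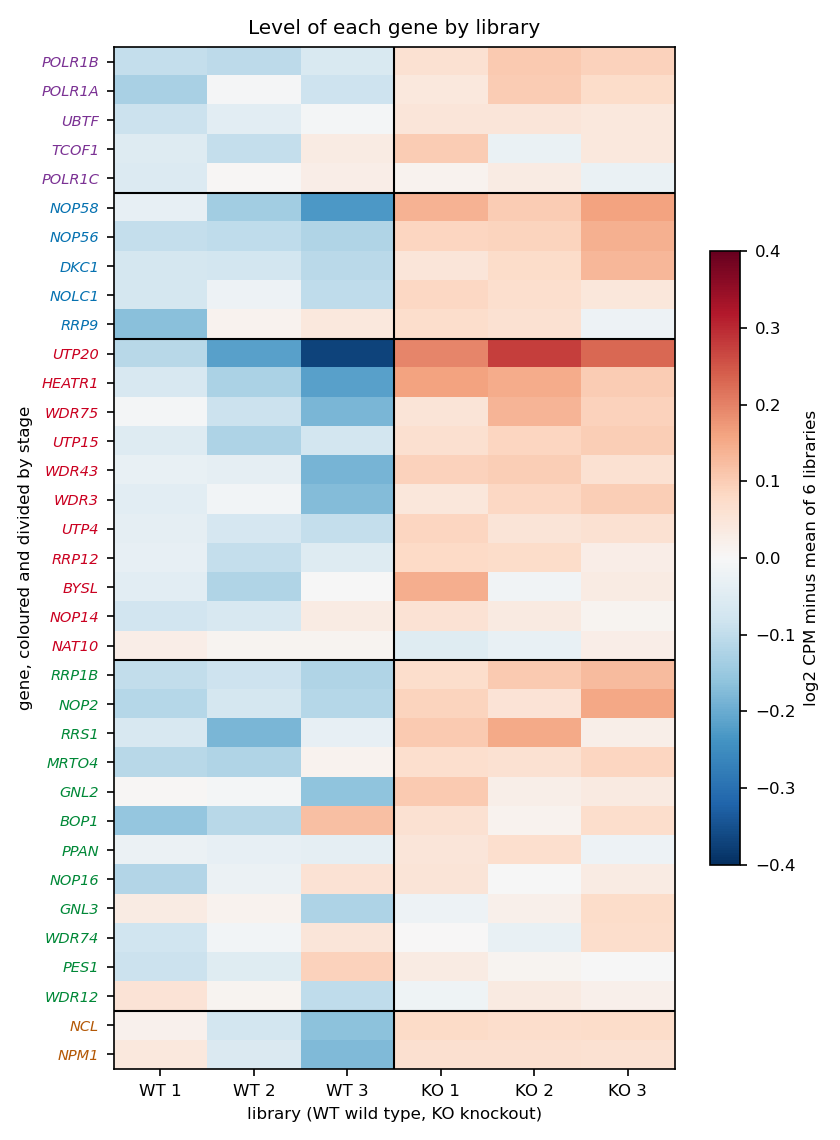
Level of each of the 35 genes (rows, divided and coloured by assembly stage) in the 3 wild-type (WT) and 3 knockout (KO) libraries (columns), as log2 CPM minus the mean of the 6 libraries. Most rows are blue in the wild-type and red in the knockout libraries, most strongly UTP20. In wild-type replicate 3 several rows were above their mean, most strongly BOP1, PES1, NOP16 and WDR74.

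The number of calls depended on which library was left out. Without wild-type replicate 1, 2 or 3 the fit called 16, 12 and 19 members higher, beside 8.72%, 3.14% and 7.04% of all tested genes. Without knockout replicate 1, 2 or 3 it called 10, 8 and 10 members higher, beside 3.1%, 2.62% and 3.76% of all tested genes. It called 0 lower in all of these. The 7 members past the threshold in each of the 6 fits were UTP20, HEATR1, NOP56, NOP58, NOP2, RRP1B and POLR1B. DKC1 was lost without knockout replicate 3. WDR43 was lost without knockout replicate 1 or 2, and NCL without knockout replicate 2 or wild-type replicate 2. RRS1 was lost without knockout replicate 1 or 2 and WDR75 without knockout replicate 2 or 3, and both without wild-type replicate 2. NOLC1 was lost without any 1 of the knockout replicates. UTP15, WDR3 and POLR1A were lost without any 1 knockout replicate and also without wild-type replicate 2, 3 and 1, in that order. The stages differed in how many members passed. These were 4 of 5 snoRNP proteins, 6 of 11 small-subunit factors, 4 of 12 large-subunit factors, 2 of 5 genes of RNA polymerase I transcription, and both abundant proteins. The differences between stages were not tested.

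**Figure D2:**
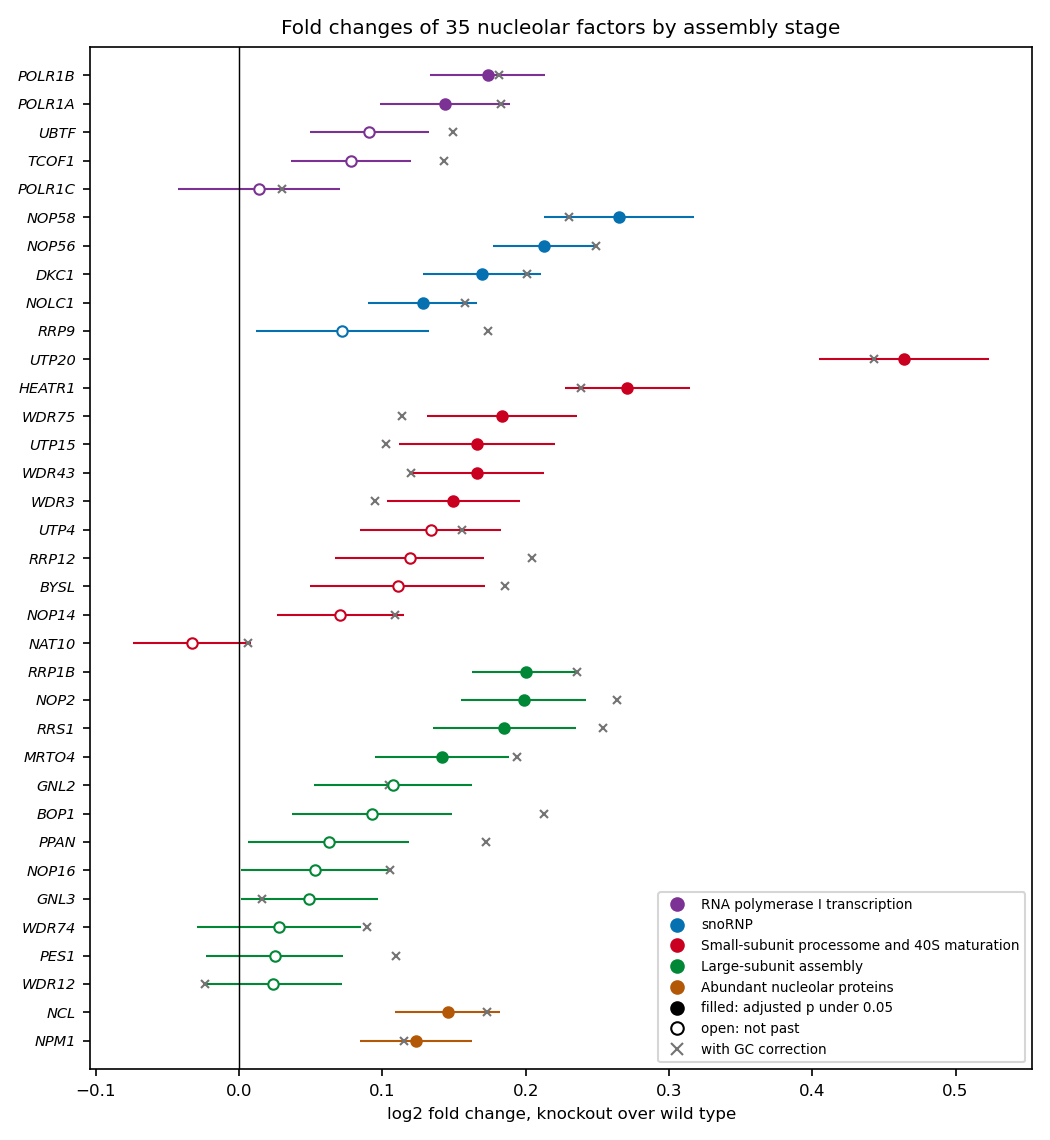
Log2 fold change of each gene, knockout over wild type, with its standard error (n = 3 libraries per group), ordered within each stage. Filled circles are genes with an adjusted p under 0.05, open circles are genes that did not pass, and crosses are the estimates after a correction for GC content; UTP20 stands farthest to the right and NAT10 is the gene left of 0.

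MYC and related factors bind the E-box CACGTG, which reads the same on both strands. Promoter windows of 300 bases (250 before and 50 after the start, RefSeq, GRCh38.p14) were matched by symbol for 28 members, and not for TCOF1, NOP58, NOLC1, RRP12, BOP1, RRP1B and RRS1. The letters CACGTG occurred in a window of 12 of these 28 genes (42.9%), beside 8.77% of all genes with a window and 12.6% of tested genes with one. Wholly before the start they occurred in 3 of the 28 (10.7%), beside 7.73% of all genes and 11.2% of tested genes. By that measure the share of the members was close to that of tested genes. In the whole window, the letters were distributed as follows. They were in 4 of the 14 members that rose and in 8 of the 14 that did not pass. Of these 8, UTP4, BYSL, NOP14, RRP9 and PES1 passed after the GC correction, so the split depends on the fit. NOP58, NOLC1, RRP1B and RRS1 rose but had no window. A link of the E-box to the rise was not tested. By stage the E-box was found in 6 of 10 small-subunit factors, 5 of 9 large-subunit factors, 1 of 3 snoRNP proteins (RRP9), and 0 of 4 genes of RNA polymerase I transcription. Its first base lay between 16 bases before and 36 bases after the RefSeq start in each of the 12. The sites are shown because of this placing, which was not compared with that in other genes. They are written 5′ to 3′ on the strand of the gene, with the E-box in capitals and 8 bases on each side. The first 4 belong to members that rose.
UTP20: tttccgtcCACGTGacccactc
WDR43: cggacgaaCACGTGgctgcagc
NOP2: ccggattgCACGTGgagggccg
MRTO4: ttccgccgCACGTGgattcagc
NAT10: cgcttgcgCACGTGctgtctac
UTP4: cgcgcgcgCACGTGgggccggg
BYSL: tcagtcccCACGTGcgatcctt
NOP14: cggcccggCACGTGtcttaggg
RRP9: tcagctgcCACGTGagttctgc
PES1: tggcagggCACGTGcgggagga
GNL2: gtcgtgcaCACGTGgtccggcg
GNL3: tcagttcaCACGTGgcgccagc

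The small-subunit genes with the strongest rise, UTP20 and HEATR1, differed in this respect. The 250 bases before the UTP20 start (chr12:101279855-101280104, plus strand, GRCh38.p14) hold 1 E-box, in capitals, 10 bases before the start, and those before the HEATR1 start (chr1:236604517-236604766, minus strand) hold 0. A match, or its absence, describes these letters only and does not show binding.
UTP20: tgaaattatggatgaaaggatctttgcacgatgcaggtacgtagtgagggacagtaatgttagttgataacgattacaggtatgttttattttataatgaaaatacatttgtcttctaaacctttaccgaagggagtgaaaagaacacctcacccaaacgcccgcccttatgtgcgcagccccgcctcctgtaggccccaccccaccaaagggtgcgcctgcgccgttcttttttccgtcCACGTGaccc
HEATR1: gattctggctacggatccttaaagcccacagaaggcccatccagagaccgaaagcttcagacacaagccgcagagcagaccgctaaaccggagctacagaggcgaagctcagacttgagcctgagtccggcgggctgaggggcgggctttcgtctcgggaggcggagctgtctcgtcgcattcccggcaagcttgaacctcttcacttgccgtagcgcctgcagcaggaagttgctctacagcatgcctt

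In the small-subunit processome, the particle that forms on the growing precursor, 6 of 11 genes rose and the median log2 fold change was 0.15. UTP20, a very large scaffold protein of the particle, had 52.4, 48.7 and 43.8 CPM in wild-type and 64.8, 68.6 and 66.3 CPM in knockout libraries. The knockout values lay above all wild-type values, and the 1.38-fold rise (95% interval 127 to 150% of wild type; n = 3 per group; edgeR, adjusted p = 8.75e-06) was the largest of the 35. UTP20 lies on chromosome 12 (101280109 to 101386616, plus strand, hg38, GENCODE 29). Within each library, its level stood at -0.73, -0.80 and -0.88 log2 units against the median of the other 10 small-subunit genes in wild type and at -0.52, -0.46 and -0.48 in the knockout. It therefore rose relative to its partners too, which is given as a description because UTP20 was the extreme of the list. Its lowest value was in wild-type replicate 3, and without that library the log2 fold change was 0.40 in place of 0.46 (edgeR, adjusted p = 1.43e-06).

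The UTP-A subcomplex, also called t-UTP because it is needed for transcription of the ribosomal DNA as well as for processing, is represented by HEATR1, WDR43, WDR75, UTP15 and UTP4. Of these 5 genes, 4 rose. HEATR1 (chromosome 1, 236549005 to 236604504, minus strand) had 151, 144 and 136 CPM in wild-type and 176, 175 and 169 CPM in knockout libraries, with no overlap, and rose 1.21-fold (log2 fold change 0.27 ± 0.04 SE; edgeR, adjusted p = 1.58e-04). It shares exon positions with LGALS8 on the other strand, which rose 1.12-fold (edgeR, adjusted p = 0.0261), and as no strand setting is stated, reads of the pair cannot be told apart. WDR43 had 115, 115 and 103 CPM in wild-type and 125, 126 and 123 CPM in knockout libraries. WDR75 had 70.3, 66.7 and 62.3 CPM in wild-type and 73.3, 77.7 and 75.4 CPM in knockout libraries. Both rose, 1.12-fold and 1.14-fold (edgeR, adjusted p = 0.0193 and 0.0207), with wild-type replicate 3 the lowest library of each.

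UTP15 rose 1.12-fold from 44.0 ± 1.14 to 49.4 ± 0.56 CPM (SD, n = 3; edgeR, adjusted p = 0.0431), close to the threshold. Its neighbour on the other strand, ANKRA2, with which it shares exon positions, went the opposite way, to 0.770-fold (edgeR, adjusted p = 0.00692). UTP4 was 1.10-fold and did not pass (edgeR, adjusted p = 0.0716), although its knockout libraries all lay above its wild-type libraries. WDR3, a member of the UTP-B subcomplex, had 114, 116 and 104 CPM in wild-type and 121, 124 and 125 CPM in knockout libraries, again without overlap, and rose 1.11-fold (edgeR, adjusted p = 0.0341).

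The other small-subunit factors did not pass the test. RRP12, a factor of late small-subunit precursors, was 1.09-fold, and BYSL, which encodes bystin and acts in small-subunit maturation, was 1.08-fold (edgeR, adjusted p = 0.135 and 0.245). NOP14 was 1.05-fold (edgeR, adjusted p = 0.317). NAT10, an acetyltransferase that modifies ribosomal RNA, transfer RNA and messenger RNA, was the member with a negative estimate, and its libraries are given for that reason after its values were seen. It had 142, 140 and 140 CPM in wild-type and 134, 136 and 142 CPM in knockout libraries. These overlapped, and the knockout level was 97.7% of wild type (95% interval 92.2 to 104%; edgeR, adjusted p = 0.655), an interval that leaves out the 1.21-fold rise estimated for HEATR1.

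**Figure D3:**
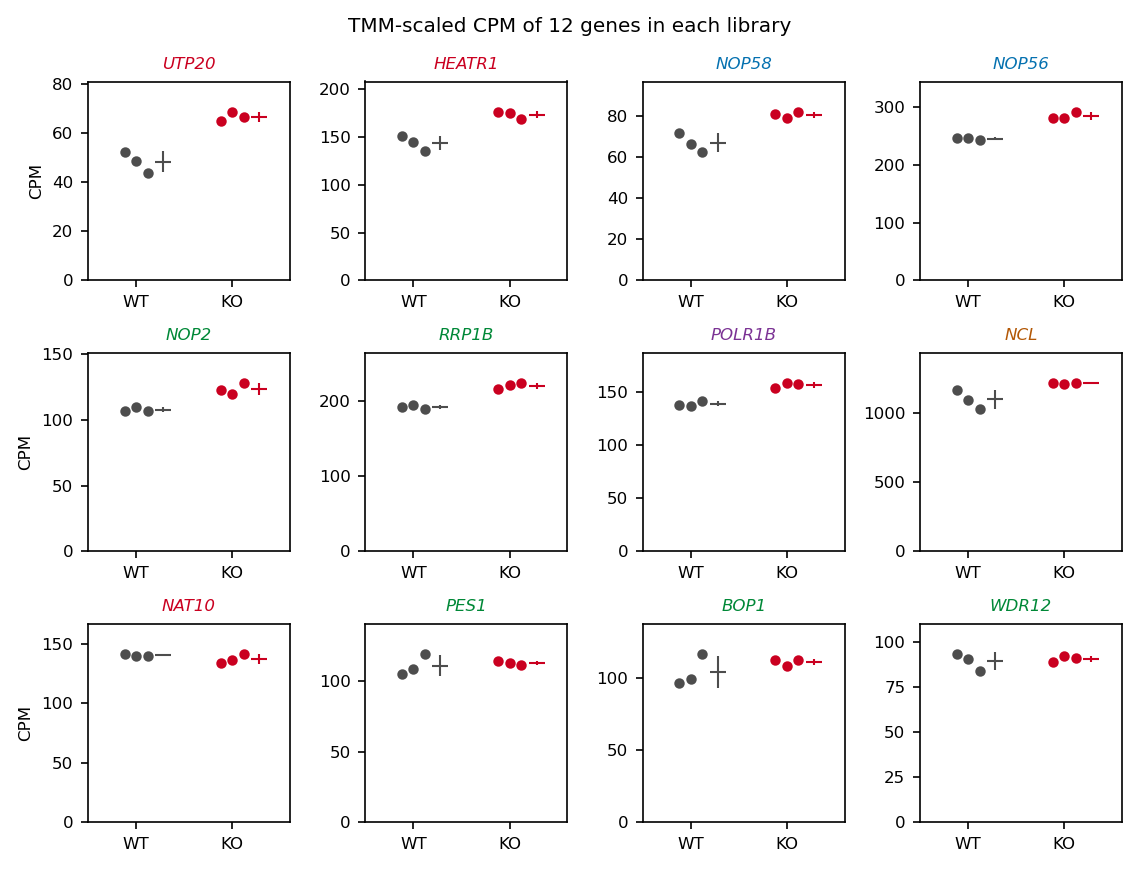
TMM-scaled CPM of 12 genes in each wild-type (WT, grey) and knockout (KO, red) library; dashes with bars beside the points are the mean ± SD (n = 3). The 7 genes that passed in every fit without 1 library (UTP20, HEATR1, NOP58, NOP56, NOP2, RRP1B and POLR1B) and NCL have no overlap between groups, while NAT10, PES1, BOP1 and WDR12 do overlap.

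Among snoRNP proteins, 4 of 5 rose and the median log2 fold change was 0.17. NOP56 and NOP58 are the paired core proteins of box C/D snoRNPs, which guide methylation of ribosomal RNA. NOP56 (chromosome 20, 2652145 to 2658393, plus strand) had 247, 246 and 242 CPM in wild-type and 280, 281 and 291 CPM in knockout libraries. NOP58 (chromosome 2, 202265716 to 202303666, plus strand) had 71.9, 66.7 and 62.8 CPM in wild-type and 80.9, 78.9 and 82.2 CPM in knockout libraries. In neither gene did the groups overlap, and the 2 partners rose by like amounts, 1.16-fold and 1.20-fold (edgeR, adjusted p = 2.55e-04 and 0.00132). Fibrillarin, the methyltransferase of the same particle (FBL), was listed at 0 in every library, a value not read as absence of expression.

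DKC1, or dyskerin, the pseudouridine synthase of box H/ACA snoRNPs, had 137, 136 and 133 CPM in wild-type and 148, 151 and 157 CPM in knockout libraries and rose 1.13-fold (edgeR, adjusted p = 0.00748). NOLC1, the snoRNP chaperone also known as Nopp140, had 192, 199 and 188 CPM in wild-type and 214, 211 and 208 CPM in knockout libraries and rose 1.09-fold (edgeR, adjusted p = 0.0278). Both were higher in each knockout library than in any wild-type library. RRP9, the protein specific to the U3 snoRNP, did not pass, at 46.4 ± 3.60 and 48.8 ± 1.69 CPM (SD, n = 3; edgeR, adjusted p = 0.477). NOP56, NOP58 and DKC1 contain annotated small RNAs within their exon positions, which the counting may have treated separately.

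Of the 12 large-subunit assembly factors, 4 rose, and the median log2 fold change was 0.08. RRP1B (chromosome 21, 43659548 to 43696079, plus strand), which acts in large-subunit processing, had 192, 194 and 189 CPM in wild-type and 216, 221 and 224 CPM in knockout libraries and rose 1.149-fold (edgeR, adjusted p = 7.51e-04). NOP2 (chromosome 12, 6556863 to 6568691, minus strand), a methyltransferase of large-subunit RNA, had 106, 110 and 106 CPM in wild-type and 122, 120 and 128 CPM in knockout libraries and rose 1.148-fold (edgeR, adjusted p = 0.00345). The replicates of these genes were close together and the groups well apart. RRS1, which helps to place the small ribosomal RNA that RNA polymerase III makes, had 92.0, 84.7 and 94.0 CPM in wild-type and 103, 107 and 97.8 CPM in knockout libraries and rose 1.14-fold (edgeR, adjusted p = 0.0145). MRTO4, which holds the place of a stalk protein on the precursor, rose 1.10-fold (edgeR, adjusted p = 0.0465), and passed in 1 of the 6 fits without 1 library, that without wild-type replicate 3.

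The PeBoW complex of PES1, BOP1 and WDR12 is needed to process the large-subunit precursor, and 0 of its 3 genes passed. PES1 had 105, 108 and 119 CPM in wild-type and 114, 112 and 111 CPM in knockout libraries. BOP1 had 96.5, 99.4 and 117 CPM in wild-type and 112, 109 and 113 CPM in knockout libraries. WDR12 had 93.4, 90.6 and 83.9 CPM in wild-type and 88.9, 92.2 and 91.2 CPM in knockout libraries. The groups overlapped in all 3, and wild-type replicate 3 was the highest wild-type library for PES1 and BOP1 and the lowest for WDR12. Transcript GC content was 58.2% in PES1, 65.2% in BOP1 and 40.2% in WDR12. The estimates were 1.02-fold for PES1, 1.07-fold for BOP1 and 1.02-fold for WDR12 (edgeR, adjusted p = 0.786, 0.291 and 0.804). Without wild-type replicate 3, BOP1 passed. After the GC correction PES1 and BOP1 passed, at log2 fold changes of 0.11 and 0.21 (edgeR, adjusted p = 0.0222 and 6.65e-05), and WDR12 stood at -0.02.

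The other large-subunit genes did not pass either. GNL2 and GNL3, the nucleolar GTPases of which GNL3 is nucleostemin, were 1.08-fold and 1.04-fold (edgeR, adjusted p = 0.207 and 0.553). NOP16, PPAN and WDR74 were between 1.02-fold and 1.04-fold. PPAN shares its exons with the readthrough gene PPAN-P2RY11, which had more counts, 58.6 ± 1.35 against 42.0 ± 0.20 CPM in wild type (SD, n = 3), so its own level is uncertain.

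In transcription of the ribosomal DNA, the 2 largest subunits of RNA polymerase I rose. POLR1A, the catalytic subunit, had 99.7, 109 and 103 CPM in wild-type and 112, 117 and 115 CPM in knockout libraries. POLR1B (chromosome 2, 112541915 to 112577150, plus strand), its partner at the active centre, had 138, 137 and 141 CPM in wild-type and 154, 158 and 157 CPM in knockout libraries. Neither overlapped between the groups, and the rises were 1.11-fold and 1.13-fold (edgeR, adjusted p = 0.0357 and 0.00525). POLR1C, which RNA polymerases I and III share, had 40.3, 42.1 and 42.7 CPM in wild-type and 42.3, 42.8 and 41.1 CPM in knockout libraries, and was at 101% of wild type (95% interval 93.1 to 110%; edgeR, adjusted p = 0.907). POLR1A passed in 2 of the 6 fits without 1 library, being lost without wild-type replicate 1 or any of the knockout replicates.

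The promoter factors of the same stage did not pass. TCOF1, which encodes treacle, a scaffold of active ribosomal DNA, had 227, 220 and 240 CPM in wild-type and 252, 231 and 242 CPM in knockout libraries, which overlapped (edgeR, adjusted p = 0.229). UBTF, the upstream binding factor, had 121.8 ± 3.25 and 129.8 ± 0.36 CPM (SD, n = 3). Its groups did not overlap, at 1.07-fold (edgeR, adjusted p = 0.156). Both passed without wild-type replicate 3 and after the GC correction, where their log2 fold changes were 0.14 and 0.15 (edgeR, adjusted p = 0.00101 and 8.68e-04).

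Nucleolin and nucleophosmin, RNA-binding proteins of the nucleolus with many roles besides ribosome assembly, rose by similar amounts. NCL had 1171, 1098 and 1032 CPM in wild-type and 1220, 1215 and 1217 CPM in knockout libraries. NPM1 had 1159, 1082 and 996 CPM in wild-type and 1177, 1175 and 1174 CPM in knockout libraries. The knockout libraries were nearly level and the wild-type libraries spread below them, with replicate 1 close to the knockout values. The changes were 1.11-fold for NCL and 1.09-fold for NPM1 (edgeR, adjusted p = 0.00943 and 0.0373). NPM1 passed in 1 of the 6 fits without 1 library, that without wild-type replicate 1, and did not pass in DESeq2, and NCL was lost without wild-type replicate 2 or knockout replicate 2.

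Levels of different genes were compared per kilobase of the principal GENCODE 29 transcript, and long annotated ends lower such values. In wild type, NPM1 was the highest, at 614 ± 46.2 CPM per kilobase (SD, n = 3), then NCL at 273 ± 17.2 and NOP56 at 102 ± 0.95. UTP20 was the lowest, at 5.35 ± 0.48. The box C/D partners differed, with NOP58 at 32.8 ± 2.24 CPM per kilobase. RNA polymerase I subunits also differed, at 8.14 ± 0.35 for POLR1A, 30.4 ± 0.51 for POLR1B and 30.8 ± 0.91 for POLR1C, the last pair within their spread. Their annotated lengths were 12749, 4558 and 1355 bases. Before division by length their wild-type means were 103.7, 138.6 and 41.7 CPM, so the order of POLR1A and POLR1C depends on the length used. PES1 and BOP1 were alike within their spread, at 48.2 ± 3.20 and 45.3 ± 4.79 CPM per kilobase, while WDR12 had 11.03 ± 0.60. The annotated lengths of PES1, BOP1 and WDR12 were 2295, 2303 and 8100 bases. Their wild-type means before division by length were 110.6, 104.2 and 89.3 CPM, so the distance of WDR12 rests largely on its length.

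The fold changes followed GC content in these libraries. Over the 13820 tested genes with a GC content, Pearson's r of log2 fold change and GC was -0.23 and Spearman's rho -0.33, and over the 35 members they were -0.36 and -0.34. These are descriptions across genes that share the same 6 libraries. The small-subunit genes had a median GC content of 42.3% and the large-subunit genes 54.8%. When the trend of each library was removed, 27 of 35 members rose, 0 fell and 8 did not pass, beside 13.7% of all tested genes called higher and 7.39% called lower, and 26.5% called higher among genes of at least the same mean level. The median became 0.16, beside 0.02 over all tested genes and 0.05 over those of that level. Over the 35 members, Pearson's r of log2 fold change and GC was then 0.20 and Spearman's rho 0.31, so their trend changed sign. Of 23 members with a GC content of 45% or more, 9 were called higher before the correction and 19 after it. Of 12 members under 45%, it was 9 before and 8 after.

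With this correction all 5 snoRNP genes, 9 of 11 small-subunit, 7 of 12 large-subunit and 4 of 5 genes of RNA polymerase I transcription rose, with medians of 0.20, 0.12, 0.14 and 0.15. The genes gained were BOP1, BYSL, NOP14, PES1, PPAN, RRP12, RRP9, TCOF1, UBTF and UTP4, and the gene lost was UTP15 (edgeR, adjusted p = 0.146). UTP20 stayed highest, at 0.44. The 5 members nearest to 0 were NAT10 at 0.01, GNL3 at 0.02, WDR12 at -0.02, POLR1C at 0.03 and WDR74 at 0.09.

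**Figure D4:**
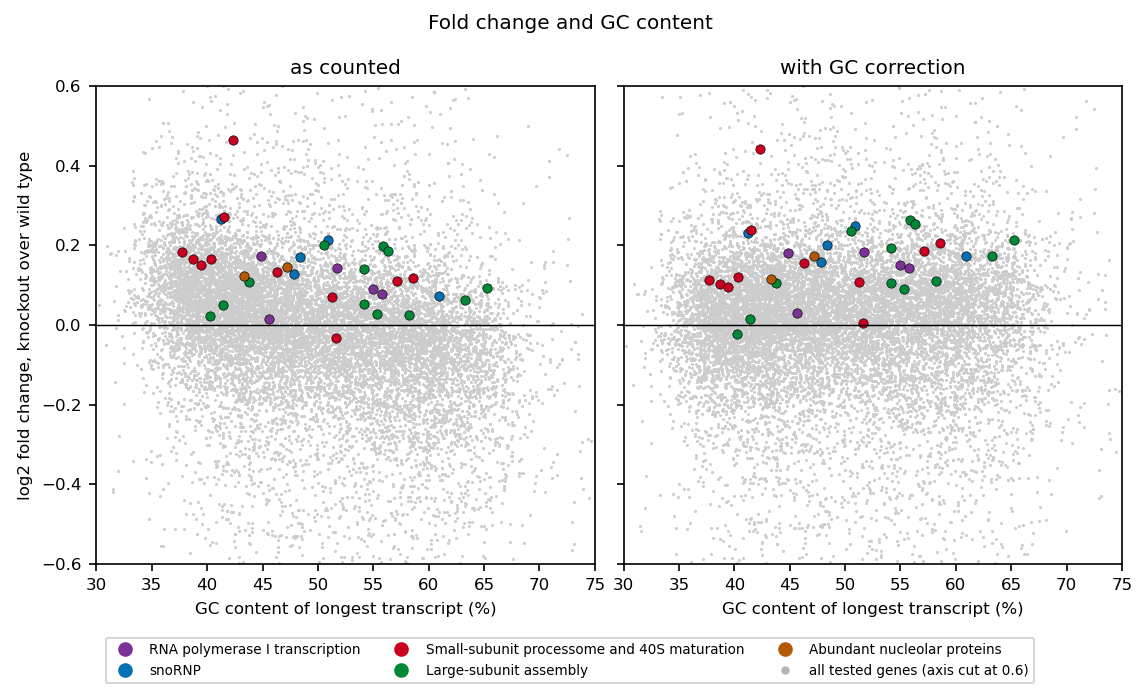
Log2 fold change, knockout over wild type, against the GC content of the longest transcript, for all tested genes (grey) and the 35 members (coloured by stage), as counted (left) and after the GC correction (right); the vertical axis ends at 0.6 in both directions. The grey cloud slopes down on the left and is level on the right, where WDR12 is the member below 0.

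Other genes of the same pathway were counted from a separate list. Of 119 further genes listed for the same stages, 117 were tested, and 25 rose, 1 fell and 91 did not pass, that is 21.4% called higher beside 6.36% of all tested genes and 12% of those at least as high as the lowest member. The log2 fold change was above 0 in 95 of the 117. By stage, 3 of 11 genes of RNA polymerase I transcription, 1 of 12 snoRNP genes, 9 of 44 small-subunit and 12 of 50 large-subunit genes rose. FBL and SURF6 were listed at 0 in every library. The largest rises were those of ESF1, from 32.0 ± 3.09 to 40.9 ± 3.55 CPM (SD, n = 3), NIFK, which binds the proliferation antigen Ki-67, from 64.7 ± 4.15 to 79.2 ± 0.88, and NOL9, a polynucleotide kinase of large-subunit processing, from 66.2 ± 3.05 to 80.8 ± 2.19. PDCD11, a large processome protein also called RRP5, rose from 111 ± 5.32 to 135 ± 2.63 CPM, URB2 from 81.5 ± 2.97 to 98.9 ± 1.41 and NOL8 from 61.3 ± 3.99 to 73.7 ± 1.55. The largest adjusted p among these 6 was 0.00198 (edgeR). The 1 gene that fell was NOC2L, which had 122 ± 7.58 CPM in wild type (SD, n = 3) and a log2 fold change of -0.28 ± 0.05 (SE; edgeR, adjusted p = 2.56e-04). NIFK, NOL8 and NOC2L share exon positions with a gene on the other strand. After the GC correction 47 of the 117 rose and 1 fell, beside 13.7% of all tested genes called higher and 26.5% of those at least as high as the lowest member. Without wild-type replicate 1, 2 or 3 it was 35, 13 and 23 that rose, beside 8.72%, 3.14% and 7.04% of all tested genes. Without knockout replicate 1, 2 or 3 it was 12 each time, beside 3.1%, 2.62% and 3.76%.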

How the data were processed

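The deposited tables hold raw counts per gene symbol, whole numbers and not normalized, with a separate table for each library. The build hg38 and the tools TopHat, limma and edgeR are named, per the submitters' processing notes, without versions or roles. Not given in the sources used here are the counting program, its annotation and strand setting, and how multi-mapping reads were handled. The 35 members, their stages and the other pathway genes were chosen with earlier results of these data known, as were the tests.

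Groups came from the sample titles. No pair of replicates differed by as little as sampling noise (chi-square per degree of freedom 3.16 to 9.71). The tests were run with edgeR 4.0.16 under R 4.3.3 (filterByExpr with minimum count 10 and minimum total 15, TMM, robust quasi-likelihood fit on group, Benjamini-Hochberg, threshold 0.05). Standard errors were derived from each fold change and its F value. The procedure was also run on simulated counts, which held no GC trend of single libraries and so cannot show how it deals with one. Alternatives were RLE or library-size scaling, other filters, a replicate block, DESeq2 1.42.0, limma-voom (limma 3.58.1), leaving out each library, and a GC correction (an offset from a 5-degree-of-freedom spline fitted in each library; 95.9% of tested genes had a GC content). Fits without ribosomal RNA genes, and with the GC correction and without wild-type replicate 3, were chosen after seeing the data. Positions, lengths and GC come from GENCODE 29 (hg38), where all 35 members matched.

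Values of each library were given for GSK3B and MYC, the 14 members with the smallest p, the extremes of each stage and the partners in PeBoW and RNA polymerase I. Of other factors, up to 6 in each direction with a mean of at least 5 CPM were named. Exons of 22 members, 9 of them called, overlap another annotated gene.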

Additional observations from a re-analysis of the deposited data

How the results depend on the processing

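With 3 libraries per group, counts of calls moved with the library left out. The median of the 35 members was 0.13 as reported, 0.11 with scaling by library size alone, 0.16 with the GC correction, alone or with the replicate block, and 0.15 with that correction and without wild-type replicate 3. Leaving out 1 library gave medians from 0.12 to 0.14, while members called higher ran from 8 to 19 and members called lower from 0 to 0. With library-size scaling 12 members rose and MRTO4, NOLC1, NPM1, POLR1A, UTP15 and WDR3 were lost. That fit called 1878 of the 14409 tested genes in either direction, beside 1951 in the fit as reported. Samples share only a replicate number between groups. Deviations of same-numbered libraries correlated at 0.07, -0.00406 and 0.03, and wild-type replicate 2 correlated best with knockout replicate 3. The replicate block called 18 members higher, the same genes as without it, beside 2193 of all tested genes called in either direction. With the GC correction, 26 members rose when the replicate block was added, and 26 when wild-type replicate 3 was left out. These 2 fits called 3061 and 2670 of all tested genes in either direction.

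Genes called in all were 3043 with the GC correction, 3061 with that correction and the replicate block, and 959 to 2543 without 1 library. Other factors called higher were 47 with the GC correction, 50 with it and the replicate block, 44 with it and without wild-type replicate 3, and 12 to 35 without 1 library. Other factors called lower were 2 with library-size scaling or no filter beyond 1 count, and 1 to 2 without 1 library. By stage, RNA polymerase I genes called higher were 1 with library-size scaling, 4 with the GC correction (alone, with the replicate block, or without wild-type replicate 3) and 1 to 4 without 1 library. Large-subunit genes were 7 with each of these GC corrections and 2 to 5 without 1 library. SnoRNP genes ran from 2 to 4 and small-subunit genes from 2 to 6 without 1 library. Of NCL and NPM1, 1 was called with library-size scaling or in DESeq2, and 0 to 2 without 1 library. The log2 fold change of GSK3B lay between -1.07 and -1.02 without 1 library.

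Signs turned in members near 0. POLR1C was at -0.0049 with library-size scaling and -0.0146 without wild-type replicate 1, when PES1 was at -0.0163 and WDR74 at -0.00985. WDR74 was at -0.00083 without knockout replicate 3. NAT10 was at 0.00587 with the GC correction and 0.00575 with the replicate block added. WDR12 was at -0.0236 and -0.0238 in those fits, -0.0198 without wild-type replicate 3, and -0.0313 with both the GC correction and that library left out. Without 1 library, POLR1C ran from -0.0146 to 0.0314, PES1 from -0.0163 to 0.0801, WDR12 from -0.0198 to 0.0524 and WDR74 from -0.00985 to 0.0599. The causes were not tested.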

Other observations

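The RNA45SN5 copy of the ribosomal RNA genes, the product that RNA polymerase I makes, had 2425, 2544 and 2474 CPM in wild-type and 2342, 2543 and 2560 CPM in knockout libraries, which overlapped (log2 fold change 0.00037 ± 0.03 SE, n = 3 per group; edgeR, adjusted p = 0.995). These libraries were made from polyadenylated RNA, and how reads of repeated copies were counted is not given in the sources used here, so the value is not a rate of ribosomal RNA synthesis. MYCL, the paralog of MYC, was low and fell from 8.97 ± 0.95 to 5.16 ± 0.62 CPM (SD, n = 3; edgeR, adjusted p = 1.01e-04). MAX, the partner of both, had 72.7 ± 2.21 and 75.4 ± 3.12 CPM and did not pass (edgeR, adjusted p = 0.520).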
